A study of Mus musculus with 18 samples.

Results

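The 10 genes described here encode core parts of the autophagy machinery, and they were picked by name from the 16248 genes of the expression table. The rule used no measured value, but the choice was made with earlier results of these data known. They are Sqstm1, Map1lc3a, Map1lc3b, Gabarap, Gabarapl1, Atg5, Atg7, Atg16l1, Becn1 and Ulk1. All 10 were listed and all 10 passed the filter on low values, which asked for a level of 1 or more in 3 or more of the 18 libraries. Levels are FPKM, the reads of a gene per kilobase of its exons after correction for library size. The question behind the samples was how endothelial cells (ECs), the lining of blood vessels, respond to a STING agonist in different breast tissues. Bulk RNA-seq was carried out on ECs sorted as live, CD45-negative and CD31-positive cells 3 h after injection of PBS or cGAMP, the cyclic dinucleotide that activates STING. Wild type FVB mice gave the normal ECs, taken from their mammary fat pad. *MMTV-PyMT* ECs came from spontaneous breast tumours of female mice treated at 9 weeks of age, in which the MMTV promoter drives the polyoma middle T oncogene in the mammary epithelium. Implanted ECs came from breast tumours grown in the mammary fat pad of wild type female FVB hosts, which received cultured *MMTV-PyMT* tumour cells at 8 to 9 weeks of age, so these ECs belong to the host. Each of the 6 groups held 3 libraries. The ages of the normal mice were not given in the sources used here. In bulk RNA, fewer cells of a type and less RNA per cell cannot be told apart.

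Autophagy encloses cytoplasm in a membrane sac, the autophagosome, and delivers it to lysosomes for breakdown. The ULK1 kinase starts the process, and the BECN1-containing lipid kinase complex marks the membrane from which the sac grows. ATG7 is the activating enzyme of a pair of ubiquitin-like conjugation reactions. These reactions join ATG12 to ATG5, which works with ATG16L1, and then attach the ATG8 family proteins (the LC3 proteins, encoded by Map1lc3a and Map1lc3b, and the GABARAP proteins) to the growing membrane. SQSTM1, also called p62, binds ubiquitin-tagged cargo and the ATG8 proteins and is itself degraded with the cargo. STING is known to trigger attachment of LC3 to membranes, and TBK1, the kinase downstream of STING, phosphorylates the cargo receptors SQSTM1 and OPTN. Most of this regulation acts on proteins. The values below are transcript levels and do not measure autophagy itself.

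The libraries held, in whole reads read back from the FPKM steps, between 9184556 and 12200414 reads each, a 1.33-fold range. Members had between 160 reads (the lowest library of Map1lc3a) and 4191 reads (the highest of Sqstm1), and intervals from such counts would cover counting error only. The interferon response genes Ifit1, Isg15, Rsad2 and Irf7 rose after cGAMP in all 3 tissues (4 of 4 genes in each). The sort was checked against marker genes. All 8 endothelial markers were listed, and their summed level lay between 724 and 1979 FPKM over the 18 libraries, with Cdh5 between 264.9 and 781.7. Markers of other cells were not absent. The 6 epithelial markers summed to between 244.9 and 905 FPKM, with the highest values in *MMTV-PyMT* ECs under PBS. There they reached 838 to 905, beside an endothelial sum of 724 to 885. In normal ECs under PBS, 5 mural cell markers (pericytes and smooth muscle) summed to 800 to 911, beside an endothelial sum of 974 to 1120. The levels below are those of the sorted fractions, and the part of other cells in them was not tested. Of 8 leukocyte markers 7 were listed, and their sum was 237.7 in implanted cGAMP replicate 2 against 19.2 to 67.8 in the other 17 libraries. That library and implanted cGAMP replicate 1 differed more from each other than any other pair of replicates did. The members' called cGAMP changes in implanted ECs are given with and without each of these libraries. The same holds for the whole-list cGAMP counts of further autophagy genes and of lysosomal genes there.

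Coordinates are those of GENCODE M21 (GRCm38, counted from 1), and levels are sums over all exons of a gene. Sqstm1 lies on chromosome 11 from 50199366 to 50210827, minus strand, Map1lc3a on chromosome 2 from 155276297 to 155278073, plus strand, and Map1lc3b on chromosome 8 from 121590361 to 121598760, plus strand. Gabarap lies on chromosome 11 from 69991143 to 69994951 and Gabarapl1 on chromosome 6 from 129533160 to 129542346, both on the plus strand. Atg5 lies on chromosome 10 from 44268358 to 44364291, Atg7 on chromosome 6 from 114643097 to 114860614 and Atg16l1 on chromosome 1 from 87755870 to 87792428, all on the plus strand. Becn1 lies on chromosome 11 from 101285952 to 101302286 and Ulk1 on chromosome 5 from 110784488 to 110810097, both on the minus strand. Use of the strand in counting was not stated, so genes that overlap a neighbour are uncertain. Becn1 shares 10366 bases with Cntd1 on the other strand, and Cntd1 was listed at no more than 0.421 FPKM in any library. Sqstm1 shares 750 bases with Mrnip on the other strand, whose mean went from 1.42 to 5.27 FPKM with cGAMP in normal ECs and from 2.66 to 4.86 in implanted ECs, and its part in the Sqstm1 values was not tested. Map1lc3b lies whole within Gm20388 on the same strand, a gene not in the table, so reads that fit both genes may have been dropped from its level. Gabarapl1 shares 692 bases with Gm44243 on the same strand, whose mean went from 2.22 to 3.51 FPKM with cGAMP in implanted ECs. Atg16l1 shares 272 bases with Gm25395 and 265 with Scarna6, both listed and on its strand. The part of these neighbours in the values of Gabarapl1 and Atg16l1 was not tested.

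Promoters of 7 of the 10 members were found in the RefSeq table (GRCm38.p6), each running from 250 bases before to 50 bases after the annotated start. No entry was matched for Map1lc3a, Atg16l1 and Becn1. The 4 promoters printed here belong to the members with the largest changes after cGAMP, namely Sqstm1 at chr11:50210771-50211070 (minus strand), Gabarapl1 at chr6:129532942-129533241 (plus strand), Atg5 at chr10:44268089-44268388 (plus strand) and Ulk1 at chr5:110810032-110810331 (minus strand). They are written 5′ to 3′ in lower case, with capitals for any match to 1 of 8 motifs searched on both strands.
Sqstm1: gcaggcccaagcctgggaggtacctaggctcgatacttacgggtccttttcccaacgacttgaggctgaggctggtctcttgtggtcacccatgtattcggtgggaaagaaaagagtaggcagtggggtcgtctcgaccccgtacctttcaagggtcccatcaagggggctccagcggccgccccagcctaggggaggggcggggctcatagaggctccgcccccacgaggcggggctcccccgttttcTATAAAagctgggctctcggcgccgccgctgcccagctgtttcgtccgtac
Gabarapl1: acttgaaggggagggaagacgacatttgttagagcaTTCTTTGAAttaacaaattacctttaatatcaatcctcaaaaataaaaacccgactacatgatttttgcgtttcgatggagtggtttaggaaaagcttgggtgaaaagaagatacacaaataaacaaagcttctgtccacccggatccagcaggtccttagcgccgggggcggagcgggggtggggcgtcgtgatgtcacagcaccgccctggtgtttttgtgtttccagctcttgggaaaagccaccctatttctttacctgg
Atg5: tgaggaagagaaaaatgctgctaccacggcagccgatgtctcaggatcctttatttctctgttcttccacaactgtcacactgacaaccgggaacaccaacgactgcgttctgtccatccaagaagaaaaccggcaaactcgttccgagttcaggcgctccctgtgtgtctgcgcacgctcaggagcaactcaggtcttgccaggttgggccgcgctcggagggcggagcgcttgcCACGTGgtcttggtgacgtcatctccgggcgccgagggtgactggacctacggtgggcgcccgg
Ulk1: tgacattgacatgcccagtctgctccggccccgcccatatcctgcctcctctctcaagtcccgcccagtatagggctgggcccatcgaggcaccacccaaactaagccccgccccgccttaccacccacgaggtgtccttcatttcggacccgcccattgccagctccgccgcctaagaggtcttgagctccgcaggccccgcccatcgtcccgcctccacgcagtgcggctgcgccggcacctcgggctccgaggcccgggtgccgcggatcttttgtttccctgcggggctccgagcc

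The capitals mark the letters of a TATA box (TATAAA) at positions 250 to 255 of the Sqstm1 window. These lie across the annotated start and not upstream of it. Also marked are a gamma-activated site (TTCNNNGAA, bound by STAT dimers) at positions 37 to 45 of Gabarapl1, and the E-box CACGTG at positions 237 to 242 of Atg5. This E-box is the core of the CLEAR element bound by TFEB. The Ulk1 window held none of the 8. Among the members whose windows are not printed, Gabarap held a gamma-activated site at positions 195 to 203. Map1lc3b held an antioxidant response element (TGACNNNGC) at positions 255 to 263. Each of these matches lies inside its gene, downstream of the GENCODE start given above. The Atg7 window held an E-box CACGTG, but it lies at chr6:114670846-114671145, inside the gene and downstream of the GENCODE start given above. No member's window held the interferon-stimulated response element, the NF-kB site, the forkhead site (GTAAACA) or the AP-1 site (TGACTCA). Over all 32817 promoters of the same length, 13.6% held the TATA box, 8.29% the gamma-activated site, 7.15% the E-box and 12.4% the antioxidant response element. The interferon-stimulated response element was found in 3.43%, the NF-kB site in 1.63%, the forkhead site in 3.65% and the AP-1 site in 5.2%. The NF-kB site and the response elements were searched apart from each other, and an antioxidant response element can share its first bases with an AP-1 site. A match describes the letters of this window and is not a measured binding site.

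After cGAMP, some autophagy core genes rose and others fell in normal and implanted ECs, as did genes at large. The counts of members are small and were not tested against the shares of all genes. A change was called where the adjusted p-value was under 0.05 (limma on log2(FPKM + 1), Benjamini-Hochberg over all 13983 tested genes), with no limit on size. In normal ECs 1 member rose, Sqstm1, and 3 fell, Gabarap, Atg5 and Atg7. Among all genes 13.7% rose and 18.2% fell in this comparison. In implanted ECs 3 members rose, Sqstm1, Gabarapl1 and Becn1, and 3 fell, Atg5, Atg7 and Ulk1, against 20.3% of all genes that rose and 18.8% that fell. In *MMTV-PyMT* ECs 0 of the 10 passed, against 7.42% of all genes that rose and 4.57% that fell. There, 4 members had an unadjusted p-value under 0.05, limma-voom on the recovered reads also called 0, and limma with libraries scaled to their total reads called 2, Gabarap (-0.30, adjusted p = 0.0121) and Atg7 (-0.35, adjusted p = 0.0222). Normal ECs had a median log2 change of the 10 members of -0.11, *MMTV-PyMT* ECs one of 0.03 and implanted ECs one of -0.0035, beside -0.04, -0.04 and -0.01 over all genes. No member changed by 2-fold after cGAMP, and the largest change was 0.65 on the log2 scale. Map1lc3a, Map1lc3b and Atg16l1 passed in none of the 3 tissues.

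**Figure D1:**
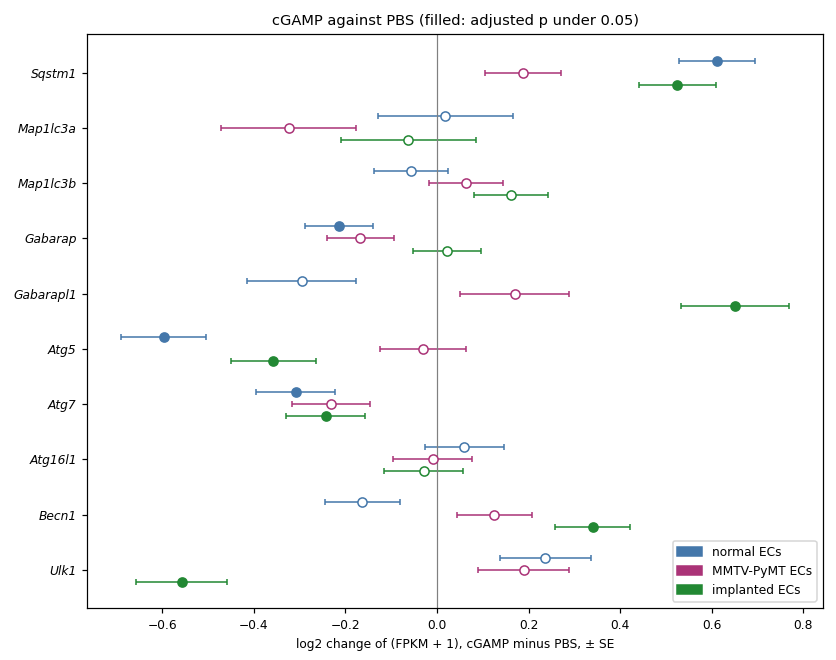
Difference of log2(FPKM + 1) between cGAMP and PBS (horizontal axis, bars are the standard error of the limma fit) for the 10 members in normal, *MMTV-PyMT* and implanted ECs. Filled points passed an adjusted p-value of 0.05, and open points did not. Sqstm1 lies at 0.61, 0.19 and 0.52, and Ulk1 at 0.24, 0.19 and -0.56 in this order of tissues.

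Sqstm1, the cargo receptor, was the member with the smallest adjusted p-value in normal and in implanted ECs. In normal ECs the PBS libraries held 64.2, 63.2 and 67.2 FPKM and the cGAMP libraries 101.6, 97.0 and 100.3. In implanted ECs, PBS libraries held 91.1, 87.8 and 86.6 and cGAMP libraries 149.4, 123.4 and 113.0. Every cGAMP library was above every PBS library in both tissues, and implanted cGAMP replicate 1 was the highest of all 18. The log2 change was 0.61 ± 0.08 (SE, adjusted p = 6.37e-05) in normal ECs and 0.52 ± 0.08 (adjusted p = 0.000121) in implanted ECs. Without implanted cGAMP replicate 1 the latter was 0.41 (adjusted p = 0.000231), and without replicate 2, the library with the most leukocyte transcripts, it was 0.55 (adjusted p = 0.000304). With libraries scaled to their total reads it was 0.21 (adjusted p = 0.0183).

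In *MMTV-PyMT* ECs, Sqstm1 levels were 90.2, 84.7 and 85.4 FPKM under PBS and 104.7, 96.2 and 96.2 under cGAMP. These groups did not overlap either, but the log2 change of 0.19 ± 0.08 missed the threshold (adjusted p = 0.165). The cGAMP effect in *MMTV-PyMT* ECs was 0.42 ± 0.12 smaller than in normal ECs on the log2 scale (a difference of -0.42, adjusted p = 0.0386). Omitting 1 library at a time, 11 of 18 fits lost that call, with adjusted p-values up to 0.0937 (without *MMTV-PyMT* cGAMP replicate 3). The *MMTV-PyMT* change passed without implanted cGAMP replicate 1, with an adjusted p of 0.0485. Implanted minus *MMTV-PyMT* ECs gave a difference of 0.34 ± 0.12 (adjusted p = 0.0820), or 0.42 (adjusted p = 0.0211) without implanted cGAMP replicate 3. Under PBS both tumours already held more Sqstm1 than normal ECs. Under cGAMP the mean was 99.6 ± 2.40 FPKM (SD, n = 3) in normal ECs, against 99.0 ± 4.92 in the *MMTV-PyMT* and 128.6 ± 18.7 in the implanted tumours.

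Sqstm1 is a known target of the oxidative stress factor NRF2, so 9 other NRF2 targets were read beside it. In normal ECs 5 of the 9 rose and 0 fell, beside 13.7% and 18.2% of all genes, with log2 changes of 1.20 ± 0.09 for Txnrd1 (thioredoxin reductase), 0.91 ± 0.14 for Hmox1 (heme oxygenase), 0.80 ± 0.16 for Srxn1 (sulfiredoxin) and 0.64 ± 0.13 for Slc7a11 (the cystine transporter). In the tumours 2 rose in each, again Txnrd1 and Slc7a11, by 0.31 and 0.47 in *MMTV-PyMT* ECs and by 0.45 and 0.40 in implanted ECs, beside 7.42% and 20.3% of all genes that rose. The implanted call of Slc7a11 was lost without implanted cGAMP replicate 1 (adjusted p = 0.0957) or replicate 2 (adjusted p = 0.0833). After scaling to total reads 0 of the 9 rose in implanted ECs and 4 fell. Normal ECs had a list median of 0.48, *MMTV-PyMT* ECs one of 0.08 and implanted ECs one of -0.10. Txnrd1 and Hmox1 had smaller cGAMP effects in both tumours than in normal ECs, with differences of -0.90 and -0.68 for *MMTV-PyMT* and of -0.75 and -0.62 for implanted ECs. Sqstm1 in implanted ECs had an effect 0.09 ± 0.12 below that in normal ECs (a difference of -0.09, adjusted p = 0.659), and with libraries scaled to their total reads this difference was -0.40 and passed (adjusted p = 0.00858).

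**Figure D2:**
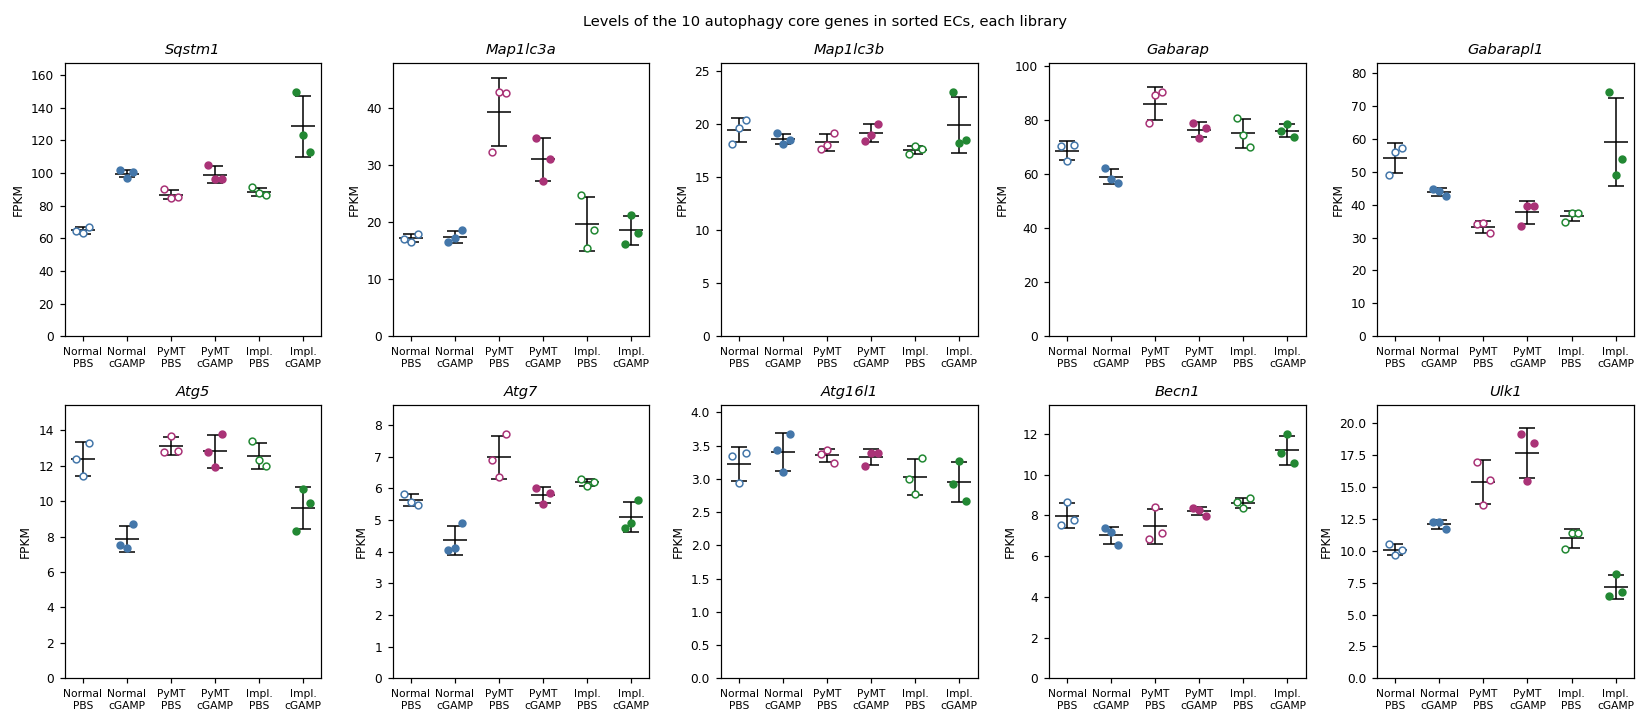
FPKM (vertical axes, from 0) of the 10 members in each of the 18 libraries, by tissue and treatment. Open circles are PBS and filled circles cGAMP libraries, and black bars are the mean and SD of 3 libraries. Sqstm1 reached 149.4 FPKM and Gabarapl1 74.1 FPKM in the same library, implanted cGAMP replicate 1.

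Of the ATG8 family members, Gabarapl1 was the one with a called difference of its cGAMP effect between tissues. In implanted ECs it stood at 34.9, 37.6 and 37.5 FPKM under PBS and at 74.1, 49.0 and 53.9 under cGAMP. All cGAMP libraries were above all PBS libraries, and replicate 1 was the highest. It rose by 0.65 ± 0.12 on the log2 scale (adjusted p = 0.000401), by 0.48 without implanted cGAMP replicate 1 (adjusted p = 0.000737) and by 0.77 without replicate 2 (adjusted p = 9.46e-05). With libraries scaled to their total reads it rose by 0.34 (adjusted p = 0.00701). In normal ECs the order was turned, with 48.9, 56.1 and 57.3 under PBS and 44.8, 44.1 and 42.5 under cGAMP. These groups did not overlap, and the log2 change of -0.30 ± 0.12 missed the threshold (adjusted p = 0.0678), though it passed without implanted cGAMP replicate 1 (adjusted p = 0.0101) or replicate 2 (adjusted p = 0.0390). The effect in implanted ECs exceeded that in normal ECs by 0.95 ± 0.17 (adjusted p = 0.00101), and all 18 fits without 1 library kept this call. In *MMTV-PyMT* ECs the libraries overlapped, at 34.1, 34.5 and 31.3 under PBS and 33.6, 39.7 and 39.6 under cGAMP, with a log2 change of 0.17 ± 0.12 (adjusted p = 0.383). Its effect there did not differ past the threshold from that in normal ECs (0.47 ± 0.17, adjusted p = 0.0973, or 0.0173 without implanted cGAMP replicate 1) or in implanted ECs (0.48 ± 0.17, adjusted p = 0.0780, or 0.0197 without replicate 2).

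Gabarap, its close relative, moved less. In normal ECs the level was 70.3, 64.7 and 70.9 FPKM under PBS and 62.1, 58.3 and 56.8 under cGAMP, so that the groups did not overlap. It fell by 0.21 on the log2 scale (SE 0.07, adjusted p = 0.0362), and 4 of the 18 fits without 1 library lost the call, with adjusted p up to 0.119 (without normal PBS replicate 3). Its log2 change was -0.17 ± 0.07 (adjusted p = 0.158) in *MMTV-PyMT* ECs and 0.02 ± 0.07 (adjusted p = 0.839) in implanted ECs, where it turned to -0.29 (adjusted p = 0.00478) with libraries scaled to their total reads. Map1lc3b, which encodes LC3B, the usual marker protein of autophagosomes, lay between 17.2 and 23.0 FPKM in all 18 libraries. Its log2 changes were -0.06, 0.06 and 0.16 (SE 0.08) in the order normal, *MMTV-PyMT* and implanted, and the adjusted p-values 0.629, 0.662 and 0.124. Map1lc3a had log2 changes of 0.02, -0.32 and -0.06 (SE 0.15), and its adjusted p of 0.175 in *MMTV-PyMT* ECs was the smallest of the 3.

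The conjugation genes Atg5 and Atg7 fell in normal and implanted ECs. Atg5 levels in normal ECs were 12.4, 11.4 and 13.3 FPKM under PBS and 7.497, 7.33 and 8.68 under cGAMP. In implanted ECs they were 13.4, 12.3 and 11.96 under PBS and 8.29, 10.7 and 9.87 under cGAMP. No cGAMP library reached the lowest PBS library in either tissue. The log2 change was -0.60 ± 0.09 (adjusted p = 0.000202) in normal and -0.36 ± 0.09 (adjusted p = 0.00646) in implanted ECs. The second was -0.26 (adjusted p = 0.0364) without implanted cGAMP replicate 1, -0.43 (adjusted p = 0.00286) without replicate 2, and -0.64 (adjusted p = 0.000163) after scaling to total reads. A fit of the implanted libraries alone gave it an adjusted p of 0.0572.

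In *MMTV-PyMT* ECs, Atg5 held 12.8, 13.7 and 12.8 FPKM under PBS and 12.8, 11.9 and 13.8 under cGAMP. The libraries were interleaved, and the log2 change was -0.03 ± 0.09 (adjusted p = 0.877). The effect in *MMTV-PyMT* ECs differed from that in normal ECs by 0.57 ± 0.13 (adjusted p = 0.0161). This was 0.52 with an adjusted p of 0.0501 without normal PBS replicate 3, and 0.45 with an adjusted p of 0.0725 after scaling to total reads. Implanted minus *MMTV-PyMT* ECs gave -0.33 ± 0.13, which did not pass (adjusted p = 0.131).

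Atg7 had negative changes in all 3 tissues, of which 2 passed. Its levels were 5.83, 5.57 and 5.47 FPKM under PBS and 4.06, 4.12 and 4.90 under cGAMP in normal ECs, and 6.30, 6.06 and 6.22 under PBS and 4.74, 4.90 and 5.63 under cGAMP in implanted ECs. In *MMTV-PyMT* ECs they were 6.89, 6.36 and 7.70 under PBS and 5.998, 5.49 and 5.86 under cGAMP. The cGAMP libraries were below the PBS libraries in each tissue. The log2 changes were -0.31 ± 0.09 (adjusted p = 0.0122), -0.24 ± 0.09 (adjusted p = 0.0341) and -0.23 ± 0.09 (adjusted p = 0.0923) in normal, implanted and *MMTV-PyMT* ECs. The call in implanted ECs was lost in 5 of the 18 fits without 1 library, with an adjusted p of 0.116 without implanted cGAMP replicate 1 and of 0.0820 without replicate 2, and the call in normal ECs in 1, with an adjusted p of 0.0512 without normal cGAMP replicate 1. After scaling to total reads, the change in implanted ECs was -0.50 (adjusted p = 0.000698). Differences of the effect between tissues lay between -0.01 and 0.08, with standard errors of 0.12. Atg16l1, the partner that brings the ATG12-ATG5 conjugate to membranes, lay between 2.67 and 3.67 FPKM in all libraries, with log2 changes of 0.06, -0.01 and -0.03 (SE 0.09).

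The genes that start the process, Ulk1 and Becn1, changed in implanted ECs and in opposite directions. Ulk1 held 10.1, 11.4 and 11.4 FPKM under PBS and 6.49, 8.21 and 6.78 under cGAMP there. Every cGAMP library was below every PBS library, with a log2 change of -0.56 ± 0.10 (adjusted p = 0.000351). In normal ECs Ulk1 was 10.6, 9.66 and 10.1 under PBS and 12.3, 12.3 and 11.7 under cGAMP. All cGAMP libraries were above the PBS libraries there, and the log2 change of 0.24 ± 0.10 missed the threshold (adjusted p = 0.0820). In *MMTV-PyMT* ECs the groups overlapped, at 17.0, 13.6 and 15.5 under PBS and 19.1, 15.4 and 18.4 under cGAMP, with a log2 change of 0.19 ± 0.10 (adjusted p = 0.243). The effect in implanted ECs lay below that in normal ECs, with a difference of -0.79 ± 0.14 (adjusted p = 0.00106), and below that in *MMTV-PyMT* ECs, with a difference of -0.75 ± 0.14 (adjusted p = 0.00282). Both differences passed in all 18 fits without 1 library.

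Becn1 in implanted ECs was at 8.67, 8.38 and 8.87 FPKM under PBS and at 11.1, 11.98 and 10.6 under cGAMP, with no overlap. Its log2 change was 0.34 ± 0.08 (adjusted p = 0.00374), but only 0.05 (adjusted p = 0.640) with libraries scaled to their total reads. In normal ECs the levels were 7.52, 8.66 and 7.80 under PBS and 7.36, 7.17 and 6.54 under cGAMP. The log2 change there was -0.16 ± 0.08 (adjusted p = 0.141), and the difference from implanted ECs was 0.50 ± 0.12 (adjusted p = 0.00632), or 0.22 (adjusted p = 0.193) after scaling to total reads. In *MMTV-PyMT* ECs the change was 0.12 ± 0.08 (adjusted p = 0.353).

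Counting the differences of the cGAMP effect over all members, 2 passed between *MMTV-PyMT* and normal ECs (Sqstm1 and Atg5), 3 between implanted and normal ECs (Gabarapl1, Becn1 and Ulk1) and 1 between implanted and *MMTV-PyMT* ECs (Ulk1). Among all genes 8.37%, 18.6% and 11.1% passed in these comparisons. They share samples with each other and with the comparisons above, so they are not separate evidence. The deposited values set the median gene of the libraries level. Scaling to total reads instead moved the median of all genes by -0.23 for cGAMP in implanted ECs and by -0.11 in *MMTV-PyMT* ECs, so changes there are relative to the median gene. Transcripts of other cells also moved with the implanted comparison. The leukocyte sum went from 29.4 to 67.8 FPKM under PBS to 50.4, 57.5 and 237.7 under cGAMP, and the sum of 4 fibroblast markers from 182 to 212 to 198, 381 and 476. In the order of replicates 1 to 3, the mural sum was 398.9, 287.5 and 153.7 under cGAMP, beside 182 to 222 under PBS. The epithelial sum was 244.9, 533 and 453.2, beside 345 to 494 under PBS. Replicate 1, the highest in Sqstm1 and Gabarapl1, also had the highest endothelial sum, 1979. The part of these sums in the changes of the members was not tested. Without implanted cGAMP replicate 2, which had the highest leukocyte and fibroblast sums, Becn1 changed by 0.30 (adjusted p = 0.0167) and Ulk1 by -0.65 (adjusted p = 0.000131). Without replicate 1 they changed by 0.35 (adjusted p = 0.00947) and -0.50 (adjusted p = 0.0023).

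Without any agonist, some autophagy core genes differed between the tissues, as many other genes did. Over all 13983 tested genes, 7894, 6804 and 6361 passed in the 3 comparisons below, in their order. The counts of members were not tested against these. Under PBS, 5 members were higher in *MMTV-PyMT* than in normal ECs (Sqstm1, Map1lc3a, Gabarap, Atg7 and Ulk1) and 1 was lower (Gabarapl1). Of all genes 29.8% were higher and 26.6% lower. In implanted ECs 1 member was higher than in normal ECs (Sqstm1) and 1 lower (Gabarapl1), beside 25% and 23.6% of all genes. Between the tumours 0 members were higher in implanted than in *MMTV-PyMT* ECs (4 had an unadjusted p under 0.05 in either direction) and 3 were lower (Map1lc3a, Gabarap and Ulk1), beside 20.8% and 24.6% of all genes. Limma-voom on the recovered reads gave the same calls for all members in the 9 comparisons.

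Map1lc3a showed the largest difference of any member, and the only one past 2-fold. Under PBS it held 17.1, 16.6 and 17.9 FPKM in normal ECs, 32.3, 42.7 and 42.6 in *MMTV-PyMT* ECs and 24.8, 15.5 and 18.6 in implanted ECs. The *MMTV-PyMT* libraries stood above all others, while implanted and normal libraries overlapped. The log2 difference was 1.14 ± 0.15 (adjusted p = 9.89e-06) from normal ECs and the implanted level lay at -0.98 ± 0.15 (adjusted p = 8.03e-05) from *MMTV-PyMT*. Implanted and normal ECs did not differ past the threshold (0.16 ± 0.15, adjusted p = 0.398). Ulk1 was also highest in *MMTV-PyMT* ECs, with a log2 difference of 0.56 ± 0.10 from normal ECs (adjusted p = 0.000209) and of -0.45 ± 0.10 for implanted minus *MMTV-PyMT* ECs (adjusted p = 0.00187). The sum of the epithelial markers was also highest in *MMTV-PyMT* ECs. It was 838 to 905 FPKM in *MMTV-PyMT*, 313 to 395 in normal and 345 to 494 in implanted ECs under PBS. Not every marker followed the sum. Mean Krt5 was 37.2 FPKM in *MMTV-PyMT*, 33.2 in normal and 9.04 in implanted ECs, and mean Krt14 was 23.3, 23.1 and 14.7. The part of epithelial transcripts in these differences was not tested.

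Gabarapl1 had the reverse order under PBS. It was higher in normal ECs, at 54.1 ± 4.52 FPKM (SD, n = 3), than in *MMTV-PyMT* ECs at 33.3 ± 1.75 and implanted ECs at 36.6 ± 1.53, and no tumour library reached the lowest normal library. The log2 differences from normal ECs were -0.68 ± 0.12 (adjusted p = 0.000152) and -0.55 ± 0.12 (adjusted p = 0.00117), and the tumours did not differ past the threshold (0.14 ± 0.12, adjusted p = 0.368). The summed level of 5 mural cell markers (pericytes and smooth muscle) was also higher in normal ECs than in both tumours, with 800 to 911 FPKM in normal ECs, 197 to 273 in the *MMTV-PyMT* and 182 to 222 in the implanted tumours, and its part was not tested. Sqstm1 was higher in both tumours, by 0.41 ± 0.08 (adjusted p = 0.000588) in *MMTV-PyMT* and 0.44 ± 0.08 (adjusted p = 0.000405) in implanted ECs (0.26 and an adjusted p of 0.0052 after scaling to total reads), and these differed by 0.03 from each other. Gabarap was higher in *MMTV-PyMT* ECs than in normal ECs by 0.32 ± 0.07 (adjusted p = 0.00158) and Atg7 by 0.27 ± 0.09 (adjusted p = 0.0147, or 0.0836 without *MMTV-PyMT* PBS replicate 3). The lower Gabarap level of implanted against *MMTV-PyMT* ECs, -0.20 ± 0.07 (adjusted p = 0.0401), was lost in 4 of the 18 fits without 1 library and was -0.35 (adjusted p = 0.0013) after scaling to total reads. Map1lc3b, Atg5, Atg16l1 and Becn1 did not differ past the threshold between any tissues under PBS, and Map1lc3b and Atg16l1 passed in none of the 9 comparisons with the values as deposited. With libraries scaled to their total reads, Map1lc3b passed for implanted against normal ECs (-0.31, adjusted p = 0.000727) and against *MMTV-PyMT* ECs (-0.20, adjusted p = 0.0139) under PBS. Atg16l1 then passed for cGAMP in implanted ECs (-0.26, adjusted p = 0.0275) and for implanted against *MMTV-PyMT* ECs under PBS (-0.24, adjusted p = 0.0442), and Atg7 for the latter (-0.29, adjusted p = 0.0270).

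**Figure D3:**
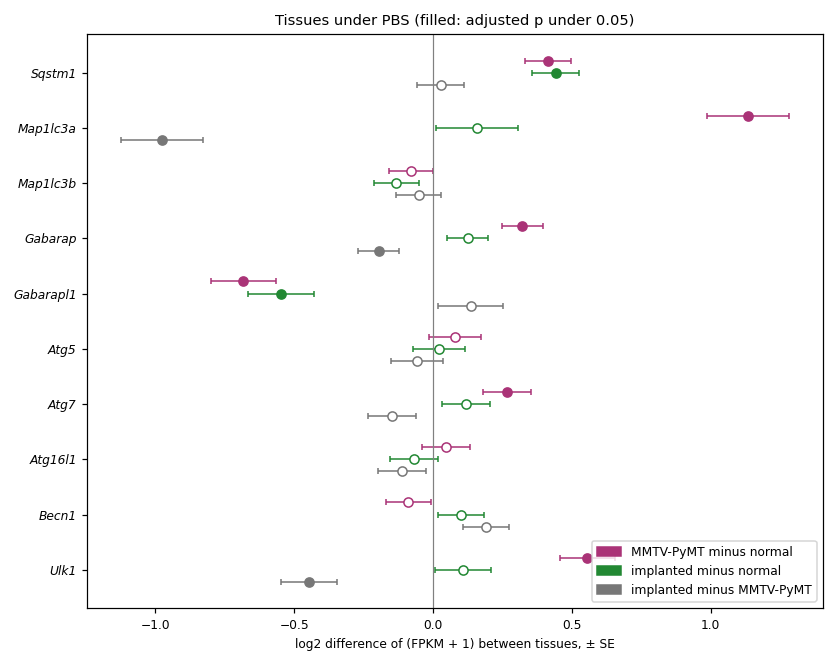
Difference of log2(FPKM + 1) between pairs of tissues under PBS (horizontal axis, bars are the standard error of the limma fit) for the 10 members. Filled points passed an adjusted p-value of 0.05. Map1lc3a reached 1.14 between *MMTV-PyMT* and normal ECs and Gabarapl1 lay at -0.68.

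The ATG8 family shows how these levels combine. With Gabarapl2, the remaining gene of the family in the wider list, the 5 genes summed to 172.9 ± 7.62 FPKM (SD, n = 3) in normal PBS, 151.6 ± 3.69 in normal cGAMP, 190.1 ± 12.3 in *MMTV-PyMT* PBS, 177.7 ± 4.29 in *MMTV-PyMT* cGAMP, 161.8 ± 8.46 in implanted PBS and 188.6 ± 14.9 in implanted cGAMP ECs. Gabarap was the largest part in every group, with mean shares between 39.0% and 46.4%. Gabarapl1 was the second in every group except *MMTV-PyMT* PBS, where its mean share was 17.6 ± 1.76% (SD) and that of Map1lc3a 20.6 ± 1.87%. In implanted ECs the share of Gabarapl1 went from 22.7 ± 2.07% under PBS to 31.1 ± 4.55% under cGAMP and that of Gabarap from 46.4 ± 1.44% to 40.5 ± 3.29%, with no overlap of libraries (exact permutation test, 2-sided, p = 0.1, the smallest that 3 against 3 can give). The order of the genes depends on the length used. The 7517 bases of summed exons behind the Map1lc3b value compare with 2532 bases in its principal coding transcript. With principal coding transcript lengths, an alternative chosen after seeing the data, Map1lc3b made up 20.2% to 25.0% of the family instead of 9.62% to 12.3%, and was above Gabarapl1 in the means of 4 of the 6 groups.

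**Figure D4:**
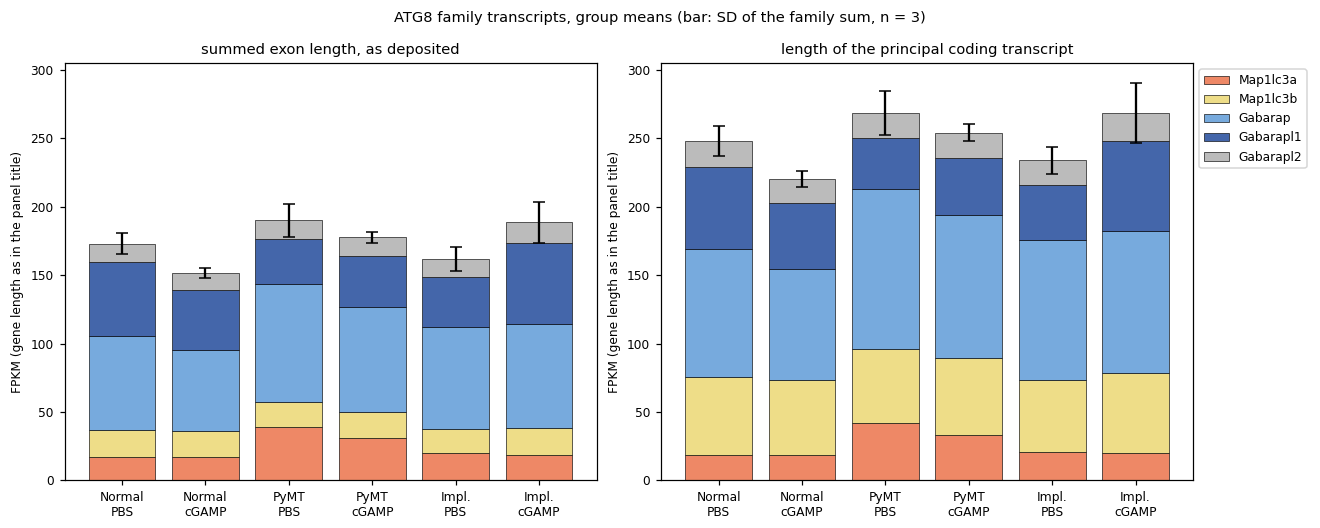
Mean FPKM of the 5 ATG8 family genes, stacked, in the 6 groups (vertical axis from 0, error bars are the SD of the family sum over 3 libraries), with the deposited summed exon lengths on the left and principal coding transcript lengths on the right. Gabarap is the largest part in both, while Map1lc3b goes from 19.4 to 57.5 FPKM in normal PBS ECs with the shorter length.

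The other genes of the pathway were read from a list of 52, of which 48 were listed and tested, and Nrbf2, Atg2a, Atg4a and Vamp8 were not analysed here. After cGAMP, 3 of the 48 were higher and 15 lower in normal ECs. The counts were 1 higher and 3 lower in *MMTV-PyMT* ECs, against 7 higher and 12 lower in the implanted tumours. Among all genes 13.7% were higher and 18.2% lower in normal, 7.42% and 4.57% in *MMTV-PyMT*, and 20.3% and 18.8% in implanted ECs. Without implanted cGAMP replicate 1 the implanted counts were 6 and 12, and without replicate 2 they were 7 and 12. After scaling to total reads they were 4 and 31, with a list median of -0.37. The median log2 changes of the list were -0.13, -0.05 and -0.09. In normal ECs the largest called changes were those of Ulk2, the paralog of Ulk1, at -0.74 ± 0.08 (adjusted p = 1.13e-05), of Vmp1, an endoplasmic reticulum protein needed for autophagosome formation, at 0.67 ± 0.12, of the mTOR inhibitor Deptor at -0.56 ± 0.12, and of the ATG8 protease Atg4c at -0.55 ± 0.13. In *MMTV-PyMT* ECs the 4 called genes were the transcription factor Foxo3 at -0.45 ± 0.12, the mTOR complex subunit Mlst8 at -0.42 ± 0.11, the ULK complex subunit Atg101 at -0.41 ± 0.13 and the mTORC1 subunit Rptor at 0.25 ± 0.06.

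In implanted ECs, Vmp1 rose by 0.90 ± 0.12 (adjusted p = 1.56e-05) and Optn, a cargo receptor and TBK1 substrate, by 0.83 ± 0.10 (adjusted p = 6.68e-06). Foxo3 changed by -0.88 ± 0.12 and Rubcn, an inhibitor of autophagosome maturation, by -0.85 ± 0.09 (adjusted p = 1.30e-06). By role, 3 of 5 genes for fusion with lysosomes rose in implanted ECs and 0 fell, while 1 of 7 genes for membrane supply rose and 4 fell. The ULK complex genes beside Ulk1 gave 0 risen and 2 fallen of 4 in normal and in implanted ECs. Cargo receptors gave 1 risen and 4 fallen of 10 in normal, 0 and 0 in *MMTV-PyMT*, and 2 and 1 in implanted ECs. Among all genes 13.7% rose and 18.2% fell in normal, 7.42% and 4.57% in *MMTV-PyMT*, and 20.3% and 18.8% in implanted ECs. The counts by role rest on few genes each and were read only with the values as deposited and with all libraries.

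**Figure D5:**
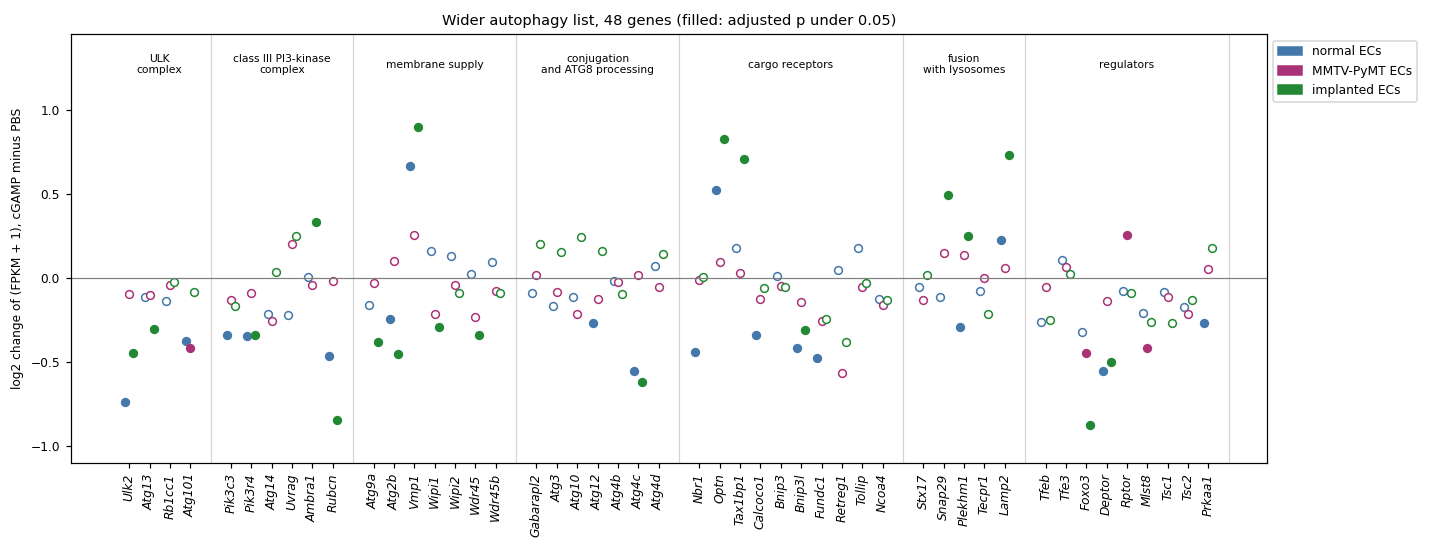
Difference of log2(FPKM + 1) between cGAMP and PBS (vertical axis) for the 48 tested genes of the wider autophagy list, grouped by role, in normal, *MMTV-PyMT* and implanted ECs. Filled points passed an adjusted p-value of 0.05, namely 18 genes for normal, 4 for *MMTV-PyMT* and 19 for implanted ECs.

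Some genes of this list also differed between tissues in the size of their cGAMP effect. Among all genes 8.37% passed between *MMTV-PyMT* and normal, 18.6% between implanted and normal, and 11.1% between implanted and *MMTV-PyMT* ECs. The counts for the list were read only with the values as deposited and with all libraries. Between *MMTV-PyMT* and normal ECs 5 of the 48 differences passed, all 5 positive, led by Ulk2 at 0.65 ± 0.12, Rubcn at 0.44 ± 0.12, the cargo receptor Nbr1 at 0.43 ± 0.10 and the fusion adaptor Plekhm1 at 0.43 ± 0.12. Between implanted and normal ECs 7 were positive and 2 negative, led by the fusion SNARE Snap29 at 0.60 ± 0.17, Foxo3 at -0.55 ± 0.17, Plekhm1 at 0.54 ± 0.12 and the cargo receptor Tax1bp1 at 0.53 ± 0.11. Between implanted and *MMTV-PyMT* ECs 5 were positive and 4 negative, led by Rubcn at -0.83 ± 0.12, Optn at 0.73 ± 0.14, Tax1bp1 at 0.68 ± 0.11 and the lysosomal membrane protein Lamp2 at 0.67 ± 0.11.

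Under PBS, 16 of the 48 were higher and 14 lower in *MMTV-PyMT* than in normal ECs, 10 higher and 11 lower in implanted than in normal ECs, and 9 higher and 15 lower in implanted than in *MMTV-PyMT* ECs. The shares over all genes were 29.8% and 26.6%, 25% and 23.6%, and 20.8% and 24.6% in this order. Against normal ECs, *MMTV-PyMT* ECs had more Retreg1, a receptor for turnover of the endoplasmic reticulum (1.39 ± 0.23), Wipi1, a phosphoinositide-binding protein of the forming autophagosome (1.30 ± 0.11), and Optn (0.83 ± 0.10), and less of the mitochondrial receptor Bnip3 (-0.97 ± 0.18). Implanted ECs had more Wipi1 (1.57 ± 0.11) and Vmp1 (0.70 ± 0.12) than normal ECs, and less Deptor (-1.05 ± 0.12) and Calcoco1 (-0.67 ± 0.09). Against *MMTV-PyMT* ECs, implanted ECs had more Bnip3 (1.53 ± 0.18), which is induced by hypoxia, and Rptor (0.75 ± 0.06), and less Retreg1 (-1.24 ± 0.23) and Deptor (-0.95 ± 0.12).

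Lysosomal genes, the end point of the pathway, were read from a list of 12, all tested. With cGAMP, normal ECs had 1 higher and 3 lower, beside 13.7% and 18.2% of all genes, and *MMTV-PyMT* ECs 1 higher and 0 lower, beside 7.42% and 4.57%. Implanted ECs had 6 higher and 1 lower, beside 20.3% and 18.8% of all genes. These were 3 and 1 without implanted cGAMP replicate 1, 3 and 2 without replicate 2, and 2 and 3 after scaling to total reads, where the list median was -0.08. The list medians were -0.20, -0.03 and 0.23 in this order. The protease Ctsb (cathepsin B) rose in all 3, by 0.32 ± 0.08, 0.47 ± 0.08 and 0.53 ± 0.08 in this order. In normal ECs Hexa, a subunit of hexosaminidase, changed by -0.68 ± 0.13, the protease Ctsd by -0.42 ± 0.12 and the membrane protein Lamp1 by -0.24 ± 0.07. In implanted ECs Cln3, a lysosomal membrane protein, rose by 1.14 ± 0.09 (adjusted p = 9.83e-08) and Neu1, a sialidase, changed by -0.40 ± 0.12. The cGAMP effect on Cln3 was larger in implanted than in normal ECs by 1.22 ± 0.13 and than in *MMTV-PyMT* ECs by 1.04 ± 0.13.

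By the rule fixed for likeness, genes were ranked by Pearson's r of log2(FPKM + 1) over the 18 libraries with the member that had the smallest adjusted p-value after cGAMP in each tissue. These members were Sqstm1 in normal and implanted ECs and Atg7 in *MMTV-PyMT* ECs, where it did not pass. The genes most like Sqstm1 were Plekho2 (r = 0.979), the proteasome subunit Psma3 (r = 0.973) and Pmaip1, which encodes the pro-apoptotic protein NOXA (r = 0.970). Those most like Atg7 were Pcyox1 (r = 0.959), the protein kinase A catalytic subunit Prkaca (r = 0.926) and Galnt10 (r = 0.924). The libraries share tissue and treatment, and the 3 genes were the highest of all tested genes, so the values describe these libraries only.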

How the data were processed

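Total RNA of CD31-positive, CD45-negative ECs was sequenced in 18 libraries of 3 per group, with a directional kit. Per the labels, the submitters' notes name FastQC, STAR (version 2.7), HTSeq and mm10. The deposited table holds FPKM values of 16248 genes, and how the authors turned counts into FPKM was not given in the sources used here. The table's values were whole multiples of what 1 read is worth for 16247 genes (99.99%, tolerance 0.02 reads), the gene lengths equal GENCODE M21 exon sums for 97.06% of genes, and the denominators follow median-of-ratios size factors. The 6 columns of normal ECs name a treatment and a replicate but no tissue, and were assigned to normal because every other column names its tumour. No column was left without a sample. The study counted 3 mice per group from 3 experiments, and which library belongs to which was not given, so p-values measure the spread between these libraries.

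Values were tested as log2(FPKM + 1), which understates the change of low genes, with limma 3.58.1 (R 4.3.3), 1 mean per group over all 18 libraries, a mean-variance trend and Benjamini-Hochberg adjustment over the 13983 genes with FPKM of at least 1 in at least 3 libraries, while 2265 genes fell below. The 9 comparisons covered the cGAMP effect per tissue, the differences of these effects, and pairs of tissues under PBS. They share libraries. The script was tested on simulated data. No pair of replicates agreed within sampling noise in a chi-square test of the recovered reads, so each library was counted. The members and gene lists were chosen with earlier results of these data known. All members were named, and from each other list up to 4 called genes per comparison with the largest change, except that 1 lysosomal gene is not reported here by name. Alternatives were a pseudocount of 0.1, no filter, a mean FPKM of at least 5, scaling to total reads, voom on recovered reads, a replicate block, only the libraries of a comparison, a 2-fold limit, and leaving out each library. For the other lists in implanted ECs, leaving out cGAMP replicate 1 or 2 and scaling to total reads were chosen after seeing the data.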

Additional observations from a re-analysis of the deposited data

Results flagged for a closer look

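The size of the cGAMP effect differed between tissues for 5 members, in 6 contrasts tested as differences of effects in the limma fit (adjusted p under 0.05 over all tested genes). Between *MMTV-PyMT* and normal ECs the difference was -0.42 for Sqstm1 and 0.57 for Atg5 on the log2 scale. Between implanted and normal ECs it was 0.95 for Gabarapl1, 0.50 for Becn1 and -0.79 for Ulk1. Between implanted and *MMTV-PyMT* ECs it was -0.75 for Ulk1. These contrasts share libraries, so the 2 values of Ulk1 rest on the same implanted samples. Among all genes 8.37%, 18.6% and 11.1% passed in these comparisons, in the order given. Not all 6 calls were stable. The Sqstm1 difference passed in 7 of the 18 fits without 1 library. That of Atg5 was lost without normal PBS replicate 3 (adjusted p = 0.0501). After scaling to total reads, the Atg5 difference (adjusted p = 0.0725) and the Becn1 difference (adjusted p = 0.193) did not pass.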

How the results depend on the processing

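Over the 90 values of the 10 members in 9 comparisons, 27 passed, and 17 of these passed under every alternative other than the 2-fold limit. A pseudocount of 0.1, no filter on low values and voom on recovered reads changed 0 of 90 calls, and a mean FPKM of at least 5 changed 0 of the 81 values that remained, Atg16l1 being below it. Scaling to total reads lost 3 calls and gained 9, and it turned Gabarap after cGAMP in implanted ECs from 0.02 to -0.29, a called value. It moved the number of members past the threshold from 0 to 2 for cGAMP in *MMTV-PyMT* ECs, from 2 to 1 for the difference between *MMTV-PyMT* and normal ECs, and from 3 to 6 for implanted against *MMTV-PyMT* ECs under PBS. A further 18 values changed sign without passing either way, and the median of all genes moved by up to 0.23. With a 2-fold limit, 1 member was left under PBS between *MMTV-PyMT* and normal ECs (Map1lc3a), 0 in the 7 other comparisons that had any. A fit of only the libraries compared lost 4 calls and gained 3.

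Leaving out 1 library at a time gave 0 to 1 members for cGAMP in *MMTV-PyMT* ECs (Sqstm1, adjusted p = 0.0485, without implanted cGAMP replicate 1), 0 to 3 for the difference between *MMTV-PyMT* and normal ECs (0 without normal PBS replicate 3) and 1 to 2 for that between implanted and *MMTV-PyMT* ECs (2 without implanted cGAMP replicate 2 or 3). Of 1620 such values 27 lost and 7 gained a call, 0 reversed, and 28 changed sign without passing either way. The replicate block, with the label's replicate number in the model, left 3 instead of 4 members for cGAMP in normal ECs (Gabarap, adjusted p = 0.0527) and 2 instead of 3 for implanted against *MMTV-PyMT* ECs under PBS (Gabarap, adjusted p = 0.056), and changed no other call. Same-numbered PBS and cGAMP libraries had correlations of their deviations between -0.29 and 0.26. Differently numbered ones had correlations between -0.33 and 0.30, so with 3 libraries a group this check cannot tell whether the numbers pair the samples.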

Other observations

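Lysosomal genes and NRF2 targets also differed between tissues without the agonist. Under PBS, 10 of the 12 lysosomal genes were higher and 1 lower in *MMTV-PyMT* than in normal ECs, with a median log2 difference of 0.39 beside 0.02 over all genes, of which 29.8% were higher and 26.6% lower. The largest were the sialidase Neu1 at 0.94 ± 0.12 (SE), the proteases Ctsd at 0.78 ± 0.12 and Ctsb at 0.62 ± 0.08, and Hexa at -0.47 ± 0.13. In implanted ECs 8 were higher and 0 lower than in normal ECs, led by Neu1 at 1.04 ± 0.12 and Ctsb at 0.94 ± 0.08, with a median of 0.36, beside 25% and 23.6% of all genes. Between the tumours 3 were higher and 4 lower in implanted ECs, beside 20.8% and 24.6%. Of the 9 NRF2 targets, 5 were higher and 1 lower in *MMTV-PyMT* than in normal ECs under PBS, among them the quinone reductase Nqo1 at 1.16 ± 0.16 and Txnrd1 at 0.84 ± 0.09, and 3 were higher and 2 lower in implanted than in normal ECs, beside the same shares of all genes as above. Epithelial transcripts were also higher in *MMTV-PyMT* ECs under PBS, with 4 of 6 markers past the threshold, and their part was not tested.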
